A study of Mus musculus with 6 samples.

Results

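The genes described here encode the MHC class II antigen presentation machinery and the co-stimulatory ligands of the B7 family. They are H2-Aa, H2-Ab1 and H2-Eb1, Cd74, H2-DMa and H2-DMb1, Ciita, and Cd80 and Cd86. The 9 genes were taken by name from a table of 57180 genes, and all 9 were present and abundant enough to be tested. RNA-seq was carried out on mouse bone marrow-derived macrophages (BMDMs), 3 libraries from wildtype (WT) C57BL/6 mice and 3 from lincRNA-EPS-/- (KO) mice. LincRNA-EPS is a long intergenic noncoding RNA listed as Ttc39aos1. All 6 cultures received M-CSF at 40 ng/mL for 24 h and then RANKL at 40 ng/mL for a further 48 h, which yields RANKL-primed osteoclast precursors (OCPs). No LPS was given to these cultures, and the way in which the KO allele was made is not given in the sources used here. Nothing in the labels ties the 3 replicates of a genotype to separate mice, so p-values measure the spread between these samples.

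MHC class II molecules carry peptides from endocytosed proteins to the cell surface, where CD4+ T cells read them. Each molecule is a pair of an alpha and a beta chain that is assembled on the invariant chain (Cd74) and loaded with peptide by the DM heterodimer. Transcription of these genes depends on the transactivator Ciita, which is recruited to a conserved arrangement of promoter boxes (X and Y) bound by RFX, CREB and NF-Y factors. Dendritic cells and B cells express class II constitutively, whereas macrophages raise it strongly in response to interferon-gamma. Cd80 and Cd86 bind Cd28 on T cells and supply the second signal of activation.

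The class II genes of C57BL/6 mice lie together on chromosome 17, and the promoters of 3 of them are shown because class II promoters are where Ciita is recruited. Of the 9 genes, 5 had a promoter entry in RefSeq (GRCm38.p6), which spans 250 bases before and 50 after a start site. An X box core was searched as GNAACNG and a Y box as ATTGG, on both strands. Either motif alone is common. The Y box was present in 37.4% of 32851 promoters of this length and the X box core in 42.3%, and the ordered pair, with 20 to 32 bases between its parts on the same strand, in 0.597%. The pair was found upstream of the RefSeq start sites of H2-Eb1 and H2-DMb1. For H2-DMb1 the stretch lies inside the gene span of the other annotation used below for positions (chr17:34153072-34160230). The capitals below mark the X box core and the Y box in these 2 promoters, and the Y box alone in H2-Aa, where no X box core with these letters was found. Each sequence is given 5′ to 3′ on the strand of its gene.
H2-Eb1, chr17:34305756-34305827, plus strand: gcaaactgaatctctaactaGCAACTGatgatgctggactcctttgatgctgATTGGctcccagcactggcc
H2-DMb1, chr17:34153077-34153149, plus strand: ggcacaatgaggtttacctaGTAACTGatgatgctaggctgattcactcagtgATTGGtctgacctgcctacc
H2-Aa, chr17:34287852-34287931, minus strand: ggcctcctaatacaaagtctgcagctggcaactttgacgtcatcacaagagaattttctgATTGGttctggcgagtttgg

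In H2-Eb1 the X box core began 91 bases and the Y box 59 bases before the start site, with 25 bases between them. In H2-DMb1 these distances were 94 and 61 bases, with 26 bases between. The Y box of H2-Aa began 48 bases before its start site. Cd80 held neither motif, and the 2 promoters listed for H2-DMa held 1 Y box and no pair. Such matches describe the sequence and were not tested for binding.

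Sequencing depth was similar in all libraries, from 17757351 to 19998611 assigned reads, so that 1 count corresponded to about the same level throughout. The knockout was visible in the data, since Ttc39aos1 held 20, 37 and 41 counts in the WT libraries and 0 in each KO library. The libraries differed along GC content, with KO replicate 3 and WT replicate 2 furthest from 0 in opposite directions. The departure of a library from the mean of all 6 libraries correlated with the GC content of the transcript across 9978 genes, with r between 0.326 and 0.662 in WT, 0.133 and -0.160 in KO replicates 1 and 2, and -0.704 in KO replicate 3. The comparisons of the 9 genes are therefore given as counts per 1000000 counts of the TMM-scaled library (CPM) and again after this GC trend had been removed from each library. The trend was positive in every WT library and ran down to -0.704 in KO. Its removal cannot be told apart from removal of a genotype difference that follows GC content. A gene was called when its adjusted p in edgeR was under 0.01 and its fold change above 1.3. By these limits 0.00745% of 13428 tested genes were called in either direction, and none of the 9 genes was among them. Ttc39aos1, the deleted gene itself, was not called either (edgeR adjusted p = 0.120), so the absence of a call says little.

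Per kilobase of transcript, Cd74 was the most abundant member and Ciita the least. In WT OCPs the level of Cd74 was 170 ± 12.1 CPM per kb (mean ± SD, n = 3), followed by H2-Ab1 at 93.5 ± 6.84, H2-Aa at 67.4 ± 8.03 and H2-Eb1 at 52.1 ± 3.29. The DM subunits H2-DMb1 and H2-DMa stood at 41.2 ± 2.48 and 19.96 ± 0.615 CPM per kb. Cd86 and Cd80 were lower, at 13.5 ± 0.933 and 9.87 ± 0.414, and Ciita was lowest at 2.31 ± 0.250. No neighbours in this order overlapped among the WT libraries. In WT Cd74 ranked 1048th and Ciita 10373rd among 13176 tested genes with a known length. The order was the same in KO, where only H2-Ab1 and H2-Aa overlapped. These ranks rest on the median length of the annotated transcripts. With the longest transcript instead, 6 of the 8 neighbouring pairs kept their order, H2-Eb1 moved above H2-Aa, and Cd80 moved above Cd86. Cd74 then ranked 389th and Ciita 10255th in WT.

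The chains of the class II molecules were compared first, to ask whether loss of lincRNA-EPS altered antigen presentation genes in OCPs. H2-Aa, the alpha chain of I-A, was higher in every KO library than in any WT library, while its partner H2-Ab1 was at a similar mean level in both genotypes. H2-Aa (chr17:34282744-34287823 in GRCm38, minus strand) stood at 74.8, 62.6 and 60.2 CPM in the WT libraries and at 86.4, 86.3 and 89.4 CPM in the KO libraries. The KO libraries differed from each other by far less than the WT libraries did. Its log2 fold change was 0.41 ± 0.11 (SE), a 1.33-fold higher level with a 95% confidence interval of 1.12 to 1.57. The edgeR adjusted p was 0.147, from an unadjusted p of 0.00411, and the adjusted p in DESeq2 was 0.0257.

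H2-Ab1, the beta chain of I-A (chr17:34257689-34269419, plus strand), stood at 70.2, 71.7 and 62.4 CPM in WT and at 82.9, 72.4 and 53.0 CPM in KO. KO replicates 1 and 2 were above all WT libraries and KO replicate 3 was below them all. The log2 fold change was 0.03 ± 0.16, with a 95% confidence interval from -0.33 to 0.38 and an edgeR adjusted p of 0.918. The ratio of H2-Aa to H2-Ab1, which varied between 0.873 and 1.07 in WT, was 1.04 and 1.19 in KO replicates 1 and 2 and 1.69 in KO replicate 3.

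H2-Eb1, the beta chain of I-E (chr17:34305867-34316674, plus strand), stood at 59.0, 57.7 and 52.3 CPM in WT and at 67.5, 70.2 and 61.6 CPM in KO. The genotypes did not overlap, though KO replicate 3 lay only slightly above WT replicate 1. Its log2 fold change was 0.24 ± 0.10, with an unadjusted p of 0.0409 and an edgeR adjusted p of 0.177. C57BL/6 mice are known not to express the alpha chain of I-E. H2-Ea accordingly had 0 counts in each of the 6 libraries, where 3 counts would correspond to 0.150 to 0.169 CPM.

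**Figure D1:**
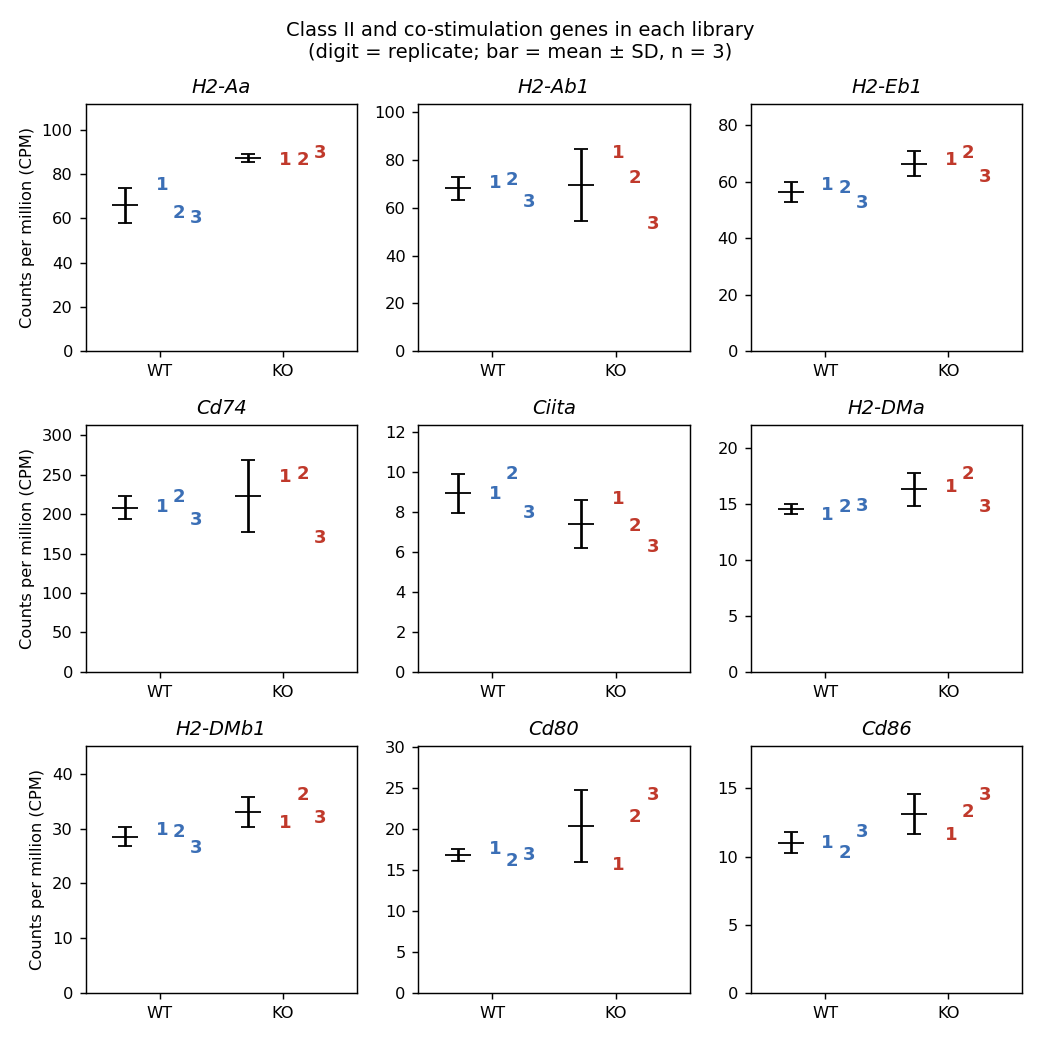
Expression of the 9 genes in CPM (vertical axes, from 0) in the WT and KO libraries, where each digit is a replicate and the bar is the mean ± SD (n = 3). H2-Aa, H2-Eb1 and H2-DMb1 were higher in all KO libraries than in any WT library, and KO replicate 3 was the lowest KO library for H2-Ab1, Cd74, H2-Eb1, H2-DMa and Ciita and the highest for H2-Aa, Cd80 and Cd86.

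The invariant chain and the DM subunits were next. Cd74 was the most strongly expressed member, at 209, 222 and 193 CPM in WT and at 247, 251 and 170 CPM in KO. As for H2-Ab1, KO replicates 1 and 2 exceeded all WT libraries and KO replicate 3 was the lowest of all 6. The log2 fold change was 0.10 ± 0.15 (edgeR adjusted p = 0.691). This value was 0.26 without KO replicate 3 and 0.003 without KO replicate 2. H2-DMa, the alpha subunit of the peptide loading factor (chr17:34119541-34139101, plus strand), stood at 13.99, 14.7 and 14.8 CPM in WT and at 16.5, 17.7 and 14.7 CPM in KO. Its log2 fold change was 0.17 ± 0.12 (edgeR adjusted p = 0.377), and the genotypes overlapped through KO replicate 3. The log2 fold change was 0.11 without KO replicate 2.

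H2-DMb1, the beta subunit (chr17:34153072-34160230, plus strand), stood at 29.7, 29.3 and 26.6 CPM in WT and at 31.1, 36.2 and 31.9 CPM in KO. The genotypes did not overlap. The log2 fold change was 0.21 ± 0.11 (edgeR adjusted p = 0.237). Its close paralog H2-DMb2 was far lower, at 2.32 ± 0.429 CPM in WT and 2.39 ± 0.199 CPM in KO, and since the authors' estimated counts divide reads between such copies, both values are uncertain to that extent.

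Ciita had a negative log2 fold change that did not pass the test. The transactivator (chr16:10480059-10528418, plus strand) stood at 8.93, 9.91 and 7.98 CPM in WT and at 8.64, 7.30 and 6.26 CPM in KO. The groups overlapped, with 2 of the 3 KO libraries below every WT library. The log2 fold change was -0.27 ± 0.16, with a 95% confidence interval from -0.64 to 0.10 (edgeR adjusted p = 0.305). Leaving out KO replicate 3 moved it to -0.16, and leaving out KO replicate 1 moved it to -0.40.

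The co-stimulatory ligands were low in both genotypes. Cd80 (chr16:38455561-38496335, plus strand) stood at 17.5, 16.1 and 16.8 CPM in WT and at 15.6, 21.4 and 24.1 CPM in KO. The KO libraries spread widely and included the lowest value of all. Cd86 (chr16:36603869-36666081, minus strand) stood at 10.98, 10.3 and 11.8 CPM in WT and at 11.6, 13.3 and 14.5 CPM in KO, again with overlap. Their log2 fold changes were 0.28 ± 0.16 (edgeR adjusted p = 0.291) and 0.25 ± 0.13 (edgeR adjusted p = 0.255). The value of Cd80 was 0.14 without KO replicate 3 and 0.44 without KO replicate 1. The ratio of Cd86 to Cd80 was 0.657 ± 0.0407 in WT and 0.654 ± 0.0769 in KO.

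Counted together, 3 of the 9 genes (H2-Aa, H2-Eb1 and H2-DMb1) were higher in all KO than in all WT libraries and 0 were lower, whereas 16.9% of all tested genes were higher and 18.8% lower by this count. H2-Aa and H2-Eb1 had an unadjusted p under 0.05, compared with 13% of all genes in this direction. The median log2 fold change of the 9 genes was 0.21 and that of all tested genes 0.01. After adjustment over all genes, no member was under 0.05 in edgeR, where 0% of all genes were under it in the higher and 0.00745% in the lower direction. In DESeq2 H2-Aa did so, as 3.55% of genes did in this direction.

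The departure of KO replicate 3 followed the GC content of the 9 transcripts. Relative to the other KO libraries, Cd80 (42.7% GC) was 1.32-fold and Cd86 (43.2% GC) 1.17-fold as high in KO replicate 3. H2-Aa, with 46.5% GC, was almost level at 1.04-fold. GC content here and in the correction is that of the longest transcript, which for H2-Aa has 3223 bases beside a median of 977. The GC-rich members were low in this library, down to 0.683-fold for Cd74 (56.6% GC) and 0.684-fold for H2-Ab1 (57.3% GC). Across the 9 genes the correlation of this departure with GC content was -0.942, a description of genes measured in the same library.

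**Figure D2:**
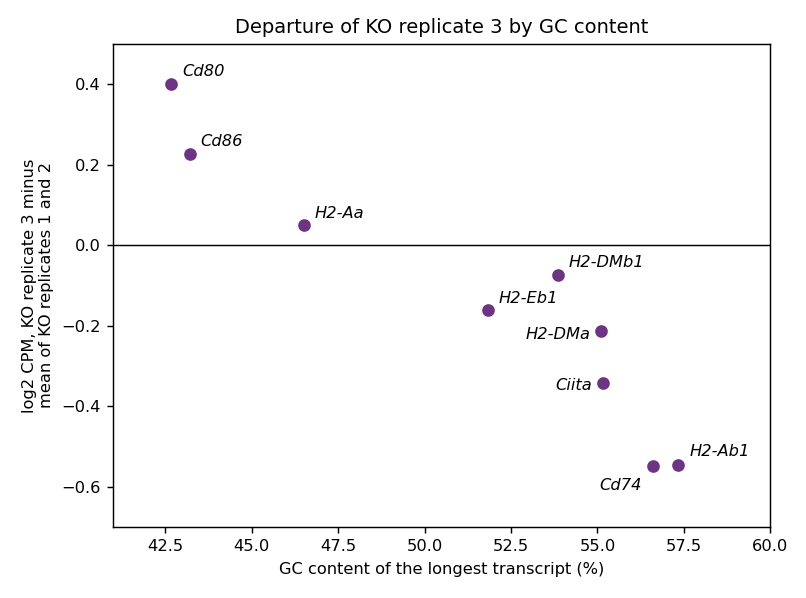
Departure of KO replicate 3 from the mean of KO replicates 1 and 2 (vertical axis, log2 CPM) against the GC content of the longest annotated transcript (horizontal axis, percent), with 1 point for each of the 9 genes. The departure runs from 0.40 for Cd80 to -0.55 for Cd74 and H2-Ab1.

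Once the GC trend was removed, the class II chains, the invariant chain and DM were higher in every KO library by a similar amount, and the co-stimulatory ligands were not. H2-Aa was then at 68.1 ± 7.55 GC-corrected CPM in WT and 84.5 ± 2.97 in KO. H2-Ab1 stood at 67.5, 59.5 and 59.6 GC-corrected CPM in WT and at 81.9, 73.9 and 68.8 in KO, so that the former overlap was gone. The correction lowered WT replicate 2 from 71.7 to 59.5 and raised KO replicate 3 from 53.0 to 68.8. For H2-Eb1 the levels were 54.9 ± 3.46 and 68.1 ± 2.47. The ordering of the KO replicates still differed between genes.

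Cd74 stood at 203, 188 and 185 GC-corrected CPM in WT and at 245, 255 and 214 in KO, without overlap. Here too the correction lowered WT replicate 2, from 222 to 188, and raised KO replicate 3, from 170 to 214. H2-DMa was at 13.7 ± 0.750 in WT and 17.3 ± 0.754 in KO, and H2-DMb1 at 27.2 ± 1.73 and 34.7 ± 3.16. Thus 6 of the 9 genes no longer overlapped, all of them higher in KO, beside 14.6% of all tested genes in this direction and 17.7% in the other. The same 6 genes were separate in plain CPM when KO replicate 3 was left out, beside 21% of all genes. Without KO replicate 1 the separate genes were instead H2-Aa, H2-Eb1, H2-DMb1, Cd80, Cd86 and, lower in KO, Ciita, where 26.7% of all genes were separate and higher and 27.7% separate and lower. Without WT replicate 3 they were H2-Aa, H2-Eb1, H2-DMb1, Cd86 and, lower in KO, Ciita, with 21.5% and 23.1% of all genes in the respective directions.

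The GC-corrected log2 fold changes of these 6 genes lay between 0.27 for H2-Ab1 and 0.35 for H2-DMb1, with standard errors of 0.07 to 0.09. Over all 9 genes the median was 0.31, and over all tested genes it was -0.01. All 6 had an unadjusted p under 0.05 (11.8% of all genes in this direction). None met the limits for a call, as 0.0298% of all genes did in either direction, and none had an adjusted p under 0.05 in edgeR, as 0.454% of genes did in this direction. The edgeR adjusted p ranged from 0.0650 for H2-Eb1 to 0.109 for H2-Ab1. Under the same correction in DESeq2 the adjusted p was 0.0148 for Cd74, 0.0184 for H2-Eb1, 0.0297 for H2-Aa and 0.0343 for H2-DMb1, where 4.99% of genes were below 0.05 in this direction.

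Ciita was at 8.38 ± 0.541 GC-corrected CPM in WT and 7.83 ± 0.680 in KO, a log2 fold change of -0.10 ± 0.12 with a 95% confidence interval from -0.37 to 0.17. The values of Cd80 and Cd86 shrank to 0.06 ± 0.12 and 0.05 ± 0.10. Their 95% confidence intervals were -0.21 to 0.32 and -0.17 to 0.28, so a difference of the size seen for the class II chains lay within or near the upper bound. GC correction thus moved the fold changes of Cd80 and Cd86 toward 0 and those of H2-Ab1 and Cd74 away from it.

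**Figure D3:**
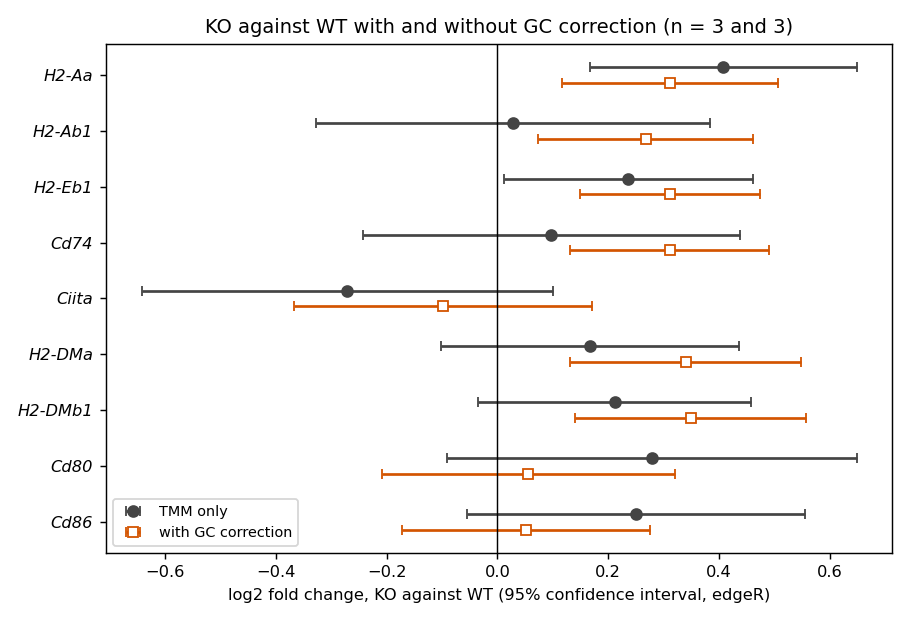
Log2 fold change of KO against WT for the 9 genes (horizontal axis) with 95% confidence intervals from edgeR (n = 3 and 3), as circles with TMM scaling only and as squares after GC correction. After correction H2-Aa, H2-Ab1, H2-Eb1, Cd74, H2-DMa and H2-DMb1 sit between 0.27 and 0.35 with intervals above 0, and Ciita, Cd80 and Cd86 have intervals that include 0.

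The other genes of class II loading and turnover were spread on both sides of 0. Of 12 tested genes of this list, 1 had an unadjusted p under 0.05 and a higher level in KO and 0 a lower one, beside 13% and 13.2% of all genes, and their median log2 fold change was 0.02. Cd63, a tetraspanin of the loading compartment, stood at 622, 438 and 600 CPM in WT and at 676, 803 and 658 CPM in KO, with a log2 fold change of 0.36 ± 0.15 (edgeR adjusted p = 0.171). This value was 0.22 without WT replicate 2, which held the lowest level, and 0.64 ± 0.18 after GC correction (adjusted p = 0.0911). Lgmn, an endosomal protease, was at -0.18 ± 0.10, at -0.097 without WT replicate 2 and at -0.10 ± 0.08 after GC correction, with overlapping libraries. Marchf8, a ubiquitin ligase that removes class II from the surface, was at -0.14 ± 0.09 and Ctsl, a cysteine protease, at 0.12 ± 0.12. Ctsl was at 0.011 without KO replicate 3, at 0.21 without KO replicate 1 and at -0.048 after GC correction. Marchf1, a ubiquitin ligase related to Marchf8 that also acts on class II, was at -0.01 before correction and at -0.30 ± 0.08 after it (unadjusted p = 0.00624, adjusted p = 0.0911). Ifi30, a lysosomal thiol reductase, was at 0.07 before and at 0.19 ± 0.07 after it (unadjusted p = 0.0348, adjusted p = 0.161).

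The promoter-binding factors and the regulators upstream of Ciita gave few departures. In the list of RFX, NF-Y and CREB subunits, 1 of 7 genes had an unadjusted p under 0.05 and was higher in KO, beside 13% of all genes. This was Nfyb, a subunit of the Y box factor, with a log2 fold change of 0.34 ± 0.14 (edgeR adjusted p = 0.177) that became 0.12 ± 0.08 after GC correction. Nfya was at -0.18 ± 0.09, Rfxank at -0.20 ± 0.20 and Creb1 at 0.14 ± 0.13, with the last at -0.16 after correction. Leaving out WT replicate 2 brought Rfxank to -0.026, and leaving out KO replicate 3 brought Creb1 to 0.045. Nfyb was at 0.21 without KO replicate 3 and at 0.43 without KO replicate 1.

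Among 11 regulators of Ciita, Irf8 alone had an unadjusted p under 0.05, and it was lower in KO, as were 13.2% of all genes by this count. Irf8, an interferon regulatory factor of monocytes and dendritic cells, stood at 80.6, 92.4 and 78.6 CPM in WT and at 65.7, 68.2 and 51.1 CPM in KO. The genotypes were well separated. Its log2 fold change was -0.44 ± 0.13 (edgeR adjusted p = 0.147, DESeq2 adjusted p = 0.0407) and -0.37 ± 0.10 after GC correction. Socs1, an inhibitor of interferon signalling, was at -0.71 ± 0.35, a value that rested on KO replicate 3. That library held 24 counts, where KO replicates 1 and 2 held 67 and 60, and the value was -0.35 without it and -0.43 ± 0.26 after GC correction. Prdm1, a repressor of Ciita, was at 0.22 ± 0.11, and at 0.11 ± 0.10 after GC correction. Irf4 was at 0.36 ± 0.20, and at 0.21 without KO replicate 1. After correction, Jak1, a kinase that relays the interferon-gamma signal, had an unadjusted p of 0.0149, at -0.19 ± 0.06 (edgeR adjusted p = 0.115).

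Other ligands of T cell receptors gave some lower values in KO, and none was called. Of 13 tested, 4 had an unadjusted p under 0.05 and a lower level and 0 a higher one, beside 13.2% and 13% of all genes. The other 9 did not pass this limit. Tnfrsf14, a ligand of Btla, had a log2 fold change of -0.59 ± 0.18 and Nectin2, a ligand of Cd226 and Tigit, of -0.50 ± 0.15. The adhesion ligand Icam1 was at -0.33 ± 0.11 and the galectin Lgals9 at -0.28 ± 0.09. Their edgeR adjusted p lay between 0.147 and 0.153. After GC correction Tnfrsf14 was at -0.45 ± 0.13, Nectin2 at -0.21 ± 0.15 with overlapping libraries, Icam1 at -0.15 ± 0.06 and Lgals9 at -0.20 ± 0.07. By unadjusted p under 0.05 after correction, 4 genes of this list were lower and 1 higher, beside 14.1% and 11.8% of all genes. The higher gene was Cd276, a B7 family member, at 0.11 ± 0.12 before and 0.33 ± 0.09 after correction, and Cd274, the ligand of Pdcd1 from the same family, was at -0.08 ± 0.10 before and -0.23 ± 0.07 after it.

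MHC class I is the nearest parallel system, with a transactivator of its own, Nlrc5, from the same protein family as Ciita. Nlrc5 stood at 28.9, 29.9 and 27.0 CPM in WT and at 20.9, 17.3 and 15.2 CPM in KO. All KO libraries were below all WT libraries, with a log2 fold change of -0.68 ± 0.14. The edgeR adjusted p was 0.141, and 0.0439 after GC correction, where 0.514% of all genes were below 0.05 in this direction. In DESeq2 it was 0.00289, which meets both limits, as 0.695% of genes did in the lower direction.

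The ratio of Nlrc5 to Ciita was taken after these values had been seen and is given as a description. An exact permutation test of its log2 values gave p = 0.1, the smallest p that 3 against 3 libraries can reach. It was 3.24, 3.02 and 3.39 in WT and 2.42, 2.37 and 2.43 in KO. The genotypes did not overlap. The KO libraries agreed closely with each other, although KO replicate 3 was the lowest for both genes.

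**Figure D4:**
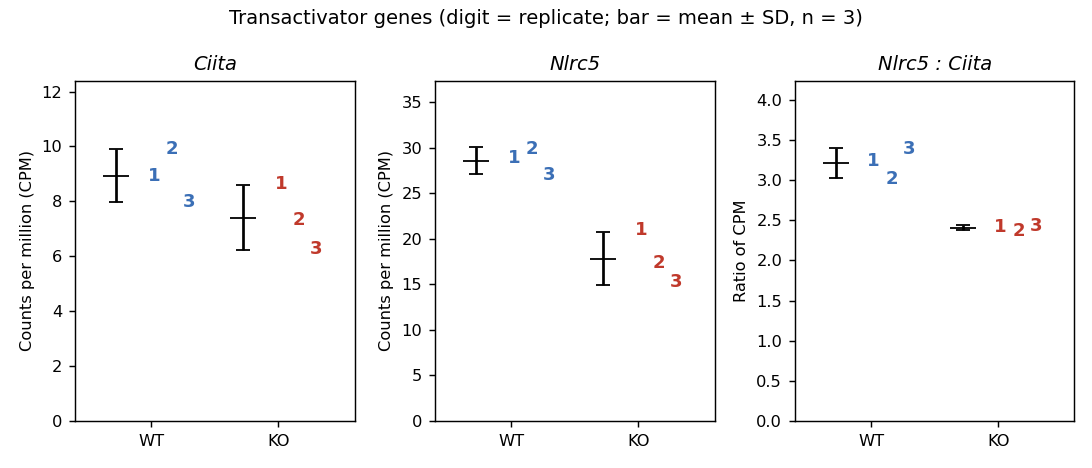
Ciita and Nlrc5 in CPM and the ratio of Nlrc5 to Ciita (vertical axes, from 0) in the WT and KO libraries, with each digit a replicate and the bar the mean ± SD (n = 3). The ratio lay between 3.02 and 3.39 in WT and between 2.37 and 2.43 in KO.

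The class I heavy chains had negative log2 fold changes that were not called, and their difference from the class II chains was not tested. H2-K1 and H2-D1 had log2 fold changes of -0.38 ± 0.11 and -0.46 ± 0.13, and Tapbp, the tapasin of the loading complex, of -0.40 ± 0.11 (edgeR adjusted p = 0.147 for each). Their DESeq2 adjusted p was 0.0316, 0.0210 and 0.0270 in this order. After GC correction H2-K1 and H2-D1 were at -0.23 ± 0.06 and -0.26 ± 0.07, and Tapbp at -0.14 ± 0.08. The DESeq2 adjusted p was then 0.0328, 0.00959 and 0.354. Summed CPM of H2-K1 and H2-D1 was 9.52, 11.5 and 11.5 times that of the 3 class II chains in WT and 6.78, 7.27 and 6.33 times in KO. Class I heavy chain genes resemble each other, and reads may be divided among them. In the whole list of 15 class I genes, 4 had an unadjusted p under 0.05 and a lower level and 1 a higher level, beside 13.2% and 13% of all genes, with a median of -0.07. After GC correction 3 were lower and 2 higher by this limit, beside 14.1% and 11.8% of all genes.

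Markers of other cells that express class II were examined beside these values. The dendritic cell list of 10 genes summed to 43.5 to 48.5 CPM in WT and 55.3 to 57.7 CPM in KO. Most of this was Itgax, which macrophages also express. Without Itgax the sums were 16.1 to 21.2 and 21.9 to 24.8 CPM, and 9 of the 10 genes had over 3 counts in every library. Ccr7 was the next most abundant, at 5.46 ± 0.154 CPM in WT and 5.54 ± 0.943 in KO, and the defining markers Flt3 and Zbtb46 were at 3.99 ± 0.730 and 2.22 ± 0.583 CPM in WT and 5.21 ± 0.866 and 2.56 ± 0.314 CPM in KO. In plain CPM these 3 genes overlapped between the genotypes, and after GC correction Flt3 was at 0.44 on the log2 scale (unadjusted p = 0.0413). Of 9 tested genes, 8 had a log2 fold change above 0 and 1 (Batf3) below it, with a median of 0.27, and 0.34 after GC correction, beside 0.01 and -0.01 over all genes. Of these 9, 2 (Itgax and Dpp4) had an unadjusted p under 0.05 and were higher in KO, beside 13% of all genes, 0 were lower by this limit and none was called. After GC correction Dpp4 no longer passed this limit (unadjusted p = 0.0961), and 2 (Itgax and Flt3) did, beside 11.8% of all genes. No marker of the list was at 0. Their part in the class II values was not tested, and in bulk RNA more cells of a type and more RNA per cell cannot be told apart.

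B cell markers summed to 28.4 to 33.3 CPM in WT and 35.1 to 39.5 CPM in KO, of which Ighm was 22.9 ± 2.11 CPM in WT and 27.8 ± 2.58 CPM in KO (mean ± SD, n = 3). Without Ighm the sums were 7.19 to 8.57 and 8.96 to 10.8 CPM. The defining marker Cd79b was at 2.52 ± 0.339 CPM in WT and 3.05 ± 0.705 CPM in KO, with overlap. Of 7 tested genes, 6 had a log2 fold change above 0 and 1 (Pax5) below it, with a median of 0.28, and 0.41 after GC correction. Of these 7, 2 (Ighm and Ighd) had an unadjusted p under 0.05 and were higher in KO, beside 13% of all genes, 0 were lower by this limit and none was called. Fcer2a and Cr2 were at 0 in some libraries. The part of B cells in the class II values was not tested.

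T cell markers were led by Il7r (130 CPM on average), with Cd4 at 5.80 CPM, and Cd3d, Cd3e, Cd3g and Cd8a were at 0 in some libraries. Their sum was 131 to 137 CPM in WT and 126 to 164 CPM in KO. Neutrophil markers, led by S100a9 and Ngp, summed to 1256 to 1416 CPM in WT and 1681 to 2024 CPM in KO, and Ly6g was at 0 in some libraries. Of 9 tested, 6 had an unadjusted p under 0.05 and were higher and 1 lower, beside 13% and 13.2% of all genes, and DESeq2 called 4, where it called 0.521% of genes in the higher direction. Osteoclast markers, led by Mmp9 and Ctsk, summed to 5092 to 5520 and 6847 to 7254 CPM, with 6 of 10 higher and 0 lower by unadjusted p under 0.05, beside 13% and 13.2% of all genes, and 4 called by DESeq2, beside 0.521%. Macrophage markers, led by Lyz2 and Cd68, summed to 16498 to 17638 and 14863 to 17667 CPM, and all 8 had over 3 counts in every library, as their label requires. Without Lyz2 the sums were 3590 to 3972 CPM in WT and 3248 to 3361 CPM in KO, which did not overlap. Of these 8 genes, 5 (Adgre1, Itgam, Mertk, Fcgr1 and Cd14) had an unadjusted p under 0.05 and were lower in KO, beside 13.2% of all genes, and 0 were higher by this limit. The largest differences were -0.64 ± 0.13 for Fcgr1 and -0.57 ± 0.10 for Mertk on the log2 scale (edgeR adjusted p = 0.141 and 0.136). No gene of the list was called in edgeR, while DESeq2 called these 2 (adjusted p = 0.00479 and 0.00212), where it called 0.695% of genes in the lower direction. After GC correction 4 genes of the list were lower by unadjusted p under 0.05, beside 14.1% of all genes. Cd14 no longer passed (unadjusted p = 0.108, with overlapping libraries). The part of these cells in the class II values was not tested either.

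The genes whose levels followed the mean of the 3 class II chains most closely over the 6 libraries were, by Pearson correlation among 10044 genes above 5 CPM, Nutf2 (r = 0.970), Thumpd2 (r = 0.966), Ogfod3 (r = 0.956), Hdc (r = 0.952) and Rae1 (r = 0.949). Among the members, H2-Eb1, itself part of the mean, reached 0.962, Cd74 0.698, H2-DMb1 0.783 and H2-DMa 0.734. Ciita was at -0.08, Cd80 at 0.10 and Cd86 at 0.20. The points share libraries and the GC trend. When each library was taken relative to its genotype mean, Cd74 was at 0.842, Ciita at 0.812, H2-DMb1 at 0.483 and H2-DMa at 0.435. Cd80 was then at -0.573 and Cd86 at -0.793. None of the 5 genes named first stayed among the closest 5.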

How the data were processed

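The deposited table held estimated counts per gene from RSEM, as the authors made them, for 3 WT and 3 KO libraries of RANKL-primed BMDMs. Per the labels, the submitters' processing notes also name fastp, HISAT2, StringTie and the build GRCm39, and versions are not given in the sources used here. They were stranded mRNA libraries. Columns of the authors' group means were not used. Estimated counts were rounded to whole numbers and 13428 genes that passed filterByExpr were fitted in edgeR 4.0.16 (R 4.3.3) with TMM scaling and the quasi-likelihood test, with Benjamini-Hochberg adjustment over all of them. Calls required an adjusted p under 0.01 and a fold change above 1.3, applied to the linear fold change. The study gives 1.3 as a limit on the log2 fold change, which is stricter and was run as an alternative. Levels are counts per 1000000 counts of the TMM-scaled library (CPM). For GC correction, each library's deviation from the gene mean was fitted as a natural spline of GC content (5 degrees of freedom) and entered as an offset, which also removes any real difference that follows GC content. GC content and lengths came from GENCODE M21 on GRCm38, matched by gene ID for 51884 of 57180 genes, and all gene positions given are on GRCm38, not on the build of the counts. Promoters came from RefSeq on GRCm38.p6.

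Alternatives used DESeq2 1.42.0 and limma 3.58.1, other scalings, filters and limits, the replicate number as a block, and each library left out in turn. The procedure was tested on simulated data. No pair of libraries agreed within sampling noise (chi-square per degree of freedom at least 3.58). The 9 genes, the gene lists and the tests were chosen with earlier results of these data known. Besides the 9 genes, the text names the 4 genes of each pathway list with the smallest unadjusted p, the 5 genes most like the class II chains and the 2 most abundant genes of each marker list. Other genes (H2-DMb2, H2-Ea, Marchf1, Ifi30, Jak1, Cd276, Cd274, Flt3, Zbtb46, Batf3, Dpp4, Pax5, Ighd, Adgre1, Itgam, Mertk, Fcgr1, Cd14 and markers at 0) were added after their values were seen. The limit of 3 counts covers counting error only.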

Additional observations from a re-analysis of the deposited data

How the results depend on the processing

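No alternative called any of the 9 genes at an adjusted p under 0.01 and a fold change above 1.3. At an adjusted p under 0.05 with no fold change limit, limits set after seeing the data, 1 member passed in DESeq2 and 4 passed in DESeq2 with GC correction, among 854 and 1124 genes, and 0 passed in edgeR with GC correction, among 130. With a log2 fold change beyond 1.3, also set after seeing the data, 1 gene was called in edgeR and 3 in DESeq2, and 0 members. At the main limits 1 gene was called by edgeR, 126 by DESeq2, 4 by edgeR with GC correction, 336 by DESeq2 with GC correction, 3 by edgeR with GC correction and without KO replicate 3, and 0 to 2 when a replicate was left out. Members whose libraries did not overlap numbered 3, beside 16.9% of all genes higher and 18.8% lower in KO. With GC correction they numbered 6, beside 14.6% and 17.7%, and when a replicate was left out 3 to 6. Without WT replicate 3, and likewise without KO replicate 1, they included Ciita, lower in KO. The shares of all genes were then 21.5% and 23.1%, and 26.7% and 27.7%. All other such members were higher in KO. None (0) of the 5 genes most like the class II chains stayed when genotype means were removed. H2-Ab1 turned with the library left out, from -0.12 to 0.19 on the log2 scale. With GC correction Ctsl turned to -0.048 in edgeR, -0.049 with the block, -0.046 in DESeq2 and -0.071 without KO replicate 3, and Creb1 to -0.16 in these 3 fits and to -0.11. The cause was not tested. Replicate numbers did not pair the samples, since the correlation of deviations between WT and KO libraries of the same number was -0.281, 0.114 and 0.224. With the replicate number as a block, 1 gene was called and the log2 fold changes of H2-Aa and H2-Ab1 were 0.41 and 0.01. Depth was lowest for Ciita, whose level rested on 123 to 181 estimated counts a library, and the common biological coefficient of variation was 0.142.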
